A study of Homo sapiens with 15 samples.

Results

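HNF4A, GATA6, FOXA1, FOXA2, FOXA3, KLF5 and SOX9 are 7 transcription factors of pancreatic and endodermal lineage, and they were taken by symbol from the 26485 genes of the deposited counts. All 7 were found in the tables of both experiments. The libraries came from PSN-1, an established human line of pancreatic ductal adenocarcinoma (PDAC), grown in RPMI with serum. In the siRNA experiment, cells were transfected for 72 hours with siRNA against MondoA (siMondoA), siRNA against its partner MLX (siMLX) or a control siRNA (siControl). In the drug experiment, cells received SBI-477, a MondoA inhibitor, or its DMSO vehicle, also for 72 hours. Each of the 5 groups has 3 libraries, 15 in all. Every library is of the same line, no label says that the replicates were separate cultures, and the p-values below therefore measure only the spread between these libraries. In bulk RNA, fewer cells of a kind and less RNA per cell cannot be told apart.

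The FOXA proteins are pioneer factors that open chromatin in endoderm and let later factors bind. GATA6 and HNF4A act with them in foregut, pancreas and liver, SOX9 marks pancreatic progenitors and duct cells, and KLF5 drives growth of gut and pancreatic epithelium. In PDAC, GATA6, HNF4A and the FOXA factors are known as factors of the classical subtype, whose cells keep a gut-like epithelial program. MondoA (gene symbol MLXIP) binds with MLX to paired E-boxes near target genes such as TXNIP and ARRDC4.

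Total counts ran from 11227343 to 14731691 in siRNA libraries and from 23315440 to 30480362 in drug libraries. Levels are given as CPM, read counts scaled by TMM to a common library size. The floor used for low values, 3 counts, is worth 0.196 to 0.266 CPM at the depth of the siRNA experiment and 0.0947 to 0.133 CPM at that of the drug experiment. MLXIP was at 22.56, 23.35 and 15.68 CPM in siMondoA libraries, against 83.55, 65.77 and 88.62 CPM in siControl libraries. MLX was at 11.93, 7.148 and 7.691 CPM in siMLX libraries, against 53.36, 58.8 and 52.98 CPM in siControl libraries. The siMLX library of replicate 2 stood apart. TXNIP was at 510.7 CPM there, against 172.3 and 93.21 CPM in siMLX replicates 1 and 3. Integrated stress response genes that stood high in single libraries of these data were listed, 12 in all. Their median lay 2.46 above the siControl mean there on the log2 scale, against 0.165 and 0.279. The factors' results for siMLX are therefore given with and without it. In the drug experiment, replicate 2 of both groups went against its label: the library labelled DMSO replicate 2 correlated across 14023 genes at 0.987 and 0.987 with SBI-477 replicates 1 and 3 but at 0.978 and 0.972 with DMSO replicates 1 and 3 (log2 CPM). The authors' deposited fold changes for the drug were matched here, to within 1e-06 in the median gene, only with SBI-477 replicate 2 and DMSO replicate 2 exchanged, of the 9 single exchanges tried. Drug results of the factors are given for the libraries as labelled and for replicates 1 and 3. Those of the other gene lists are given for replicates 1 and 3 only, 2 libraries a group. As labelled, 0 genes of those lists were called. Of 10 epithelial marker genes KRT8, KRT18 and KRT19 stood highest, and the summed CPM of the list was 1178 to 2668 over all libraries. Of 12 duct markers KRT7 and KRT19 were present while PKHD1 was at 0 in all 15 libraries. Summed levels over 14 acinar and 11 endocrine markers stayed at or below 81.06 and 30.9 CPM. PRSS1 stood highest of the acinar list, at up to 77.78 CPM. Of 2 acinar markers tested, 1 fell after siMondoA (50% against 27.2% of all genes tested) and 1 after siMLX (50% against 8.41%). Without siMLX replicate 2, 0 were called (0% against 6.27%), and in drug replicates 1 and 3, 1 fell (50% against 18.1%). The fibroblast list was not low, at 567.2 to 857.3 CPM in siRNA and 103.9 to 363.1 CPM in drug libraries, led by COL3A1, LUM and PDGFRA, with THY1 at 3 counts in all. Of 8 fibroblast markers tested, 1 rose and 2 fell after siMondoA (37.5% against 27.2% of all genes tested). After siMLX 2 rose and 2 fell (50% against 8.41%), and 1 and 2 without replicate 2 (37.5% against 6.27%). Of 7 tested in drug replicates 1 and 3, 1 rose and 3 fell (57.1% against 18.1%). Leukocyte markers summed to 51.67 to 101.4 CPM, with CD3D, CD3E and MS4A1 at 0 in every library. Of 4 tested, 1 rose and 2 fell after siMondoA (75% against 27.2% of all genes) and 0 were called after siMLX (0% against 8.41%). In drug replicates 1 and 3, 2 of the leukocyte markers rose (50% against 18.1%). Endothelial markers summed to 21.31 to 40.47 CPM, and 1 of 2 tested rose in each of these comparisons (50%, against the same shares of all genes). The part of these markers in the results below was not tested.

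SOX9 and GATA6 were the most abundant of the 7 factors per kilobase of exon in siControl and DMSO libraries, and KLF5 stood highest in all 3 siMondoA libraries. Levels between genes are compared as CPM per kb of exon, from GENCODE v29 exon lengths. In siMondoA libraries the order was KLF5 (51.3 ± 13.5), GATA6 (29.7 ± 5.74), SOX9 (25.3 ± 0.659), FOXA2 (8.51 ± 1.33), HNF4A (2.06 ± 1.30), FOXA1 (1.29 ± 0.72) and FOXA3 (0.133 ± 0.057; CPM per kb, mean ± SD, n = 3). GATA6 and SOX9, and HNF4A and FOXA1, overlapped there. In siMLX libraries KLF5 was at 31.9 ± 21.4, GATA6 at 24.7 ± 2.57, SOX9 at 19.9 ± 1.51, FOXA2 at 7.12 ± 1.52, HNF4A at 6.90 ± 3.50, FOXA1 at 3.08 ± 1.32 and FOXA3 at 0.087 ± 0.076 CPM per kb (SD, n = 3). KLF5 led through siMLX replicate 2 alone, at 56.64 CPM per kb. In siMLX replicates 1 and 3 it was at 20.43 and 18.72 CPM per kb, below GATA6 at 22.27 and 24.34. Ranges overlapped there between KLF5 and GATA6, between FOXA2 and HNF4A and between HNF4A and FOXA1. In siControl libraries the order was SOX9 (22.6 ± 1.75), GATA6 (15.9 ± 0.283), KLF5 (8.94 ± 2.18), FOXA2 (7.88 ± 0.806), FOXA1 (3.18 ± 0.737), HNF4A (1.30 ± 0.183) and FOXA3 (0.082 ± 0.023; CPM per kb, SD, n = 3). Only KLF5 and FOXA2 overlapped among these neighbours. GATA6 stood at the 82.5th percentile of genes with counts in siControl libraries by this measure, SOX9 at the 87.9th and HNF4A at the 39.1st. In SBI-477 and DMSO libraries GATA6 and SOX9 led and overlapped, at 13.9 and 13.8 CPM per kb under SBI-477 and 16.1 and 14.7 CPM per kb under DMSO. FOXA3, which acts beside FOXA2 in liver, had 0 to 12 counts per library and did not pass the filter on low counts in any fit that used it, so 6 of the 7 factors were tested. Without that filter its edgeR adjusted p was 0.602 for siMondoA, 1.00 for siMLX and 0.959 for SBI-477. The 0 of siMLX replicate 3 allows a level of up to 0.229 CPM.

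**Figure D1:**
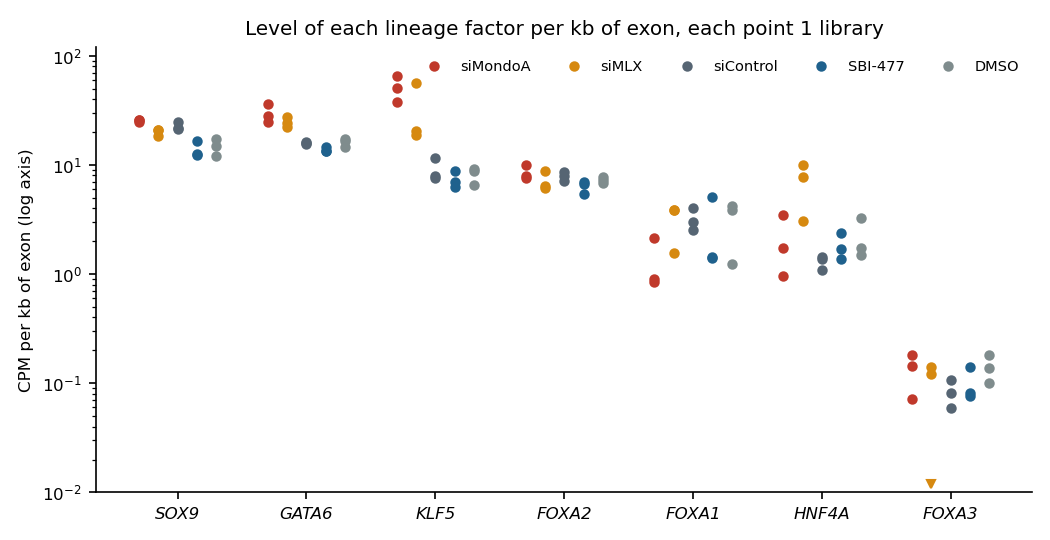
Level of each factor in CPM per kb of exon (log axis), 1 point per library, in siMondoA, siMLX, siControl, SBI-477 and DMSO libraries. KLF5 points of siMondoA libraries lie above all siControl points, FOXA3 lies lowest in all groups, and the triangle at the lower edge marks the siMLX library with 0 FOXA3 counts.

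The bases upstream of the factors that moved are shown because MondoA and MLX bind E-boxes. RefSeq tables on GRCh38.p14 gave 7 windows for 5 of the factors, and none for FOXA2 and SOX9. The 250 bases before each start are printed 5′ to 3′ on the gene's strand, with every CANNTG, the general E-box form, in capitals (neighbouring matches run together). KLF5 has a pair of listed starts, and the window of the upstream one is shown (40.8% G and C). The window of the other start (chr13:73058755-73059004, 70.8% G and C) holds 1 CANNTG, 11 bases before that start, and is not printed. HNF4A has an upstream promoter, P2, known from pancreas, and a downstream promoter, P1, known from liver and gut. By the GENCODE v29 gene spans the printed KLF5 window and the HNF4A P2 window lie just before the gene. The other KLF5 window lies within KLF5, the HNF4A P1 window within HNF4A and the FOXA1 window within FOXA1. The GATA6 window crosses the gene's start.
KLF5 (chr13:73054726-73054975, plus strand): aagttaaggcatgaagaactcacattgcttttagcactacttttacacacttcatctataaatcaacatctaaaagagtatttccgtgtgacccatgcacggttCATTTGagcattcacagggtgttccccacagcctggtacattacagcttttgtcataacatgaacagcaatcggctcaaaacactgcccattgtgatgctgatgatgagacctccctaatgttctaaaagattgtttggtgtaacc
GATA6 (chr18:22169339-22169588, plus strand): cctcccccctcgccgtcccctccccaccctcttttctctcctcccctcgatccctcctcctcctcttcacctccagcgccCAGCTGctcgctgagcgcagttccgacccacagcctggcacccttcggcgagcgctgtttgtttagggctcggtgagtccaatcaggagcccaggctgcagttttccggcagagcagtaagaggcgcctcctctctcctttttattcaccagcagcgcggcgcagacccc
FOXA1 (chr14:37595250-37595499, minus strand): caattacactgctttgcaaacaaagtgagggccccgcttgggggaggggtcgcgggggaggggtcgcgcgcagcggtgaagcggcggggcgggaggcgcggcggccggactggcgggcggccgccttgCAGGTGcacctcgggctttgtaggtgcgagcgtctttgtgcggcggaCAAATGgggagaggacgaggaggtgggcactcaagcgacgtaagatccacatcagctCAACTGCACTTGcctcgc
HNF4A P2 (chr20:44355449-44355698, plus strand): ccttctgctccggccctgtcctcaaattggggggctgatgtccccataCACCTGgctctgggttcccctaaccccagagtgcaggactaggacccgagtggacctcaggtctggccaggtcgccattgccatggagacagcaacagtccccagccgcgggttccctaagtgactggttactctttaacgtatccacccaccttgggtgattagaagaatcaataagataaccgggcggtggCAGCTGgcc
HNF4A P1 (chr20:44400989-44401238, plus strand): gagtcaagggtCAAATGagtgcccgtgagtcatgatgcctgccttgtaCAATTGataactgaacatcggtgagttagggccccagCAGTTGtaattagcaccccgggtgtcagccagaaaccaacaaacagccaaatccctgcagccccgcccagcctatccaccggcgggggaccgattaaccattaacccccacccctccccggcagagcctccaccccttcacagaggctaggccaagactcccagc
The full E-box CACGTG was in 0 of the 7 windows and in 6.34% of all 35116 windows of this length, searched on both strands. The carbohydrate response element written as CACGTGNNNNNCACGTG was in 0.00285% of all windows. It contains that E-box, so its count of 0 in the 7 windows was fixed by the E-box count. The looser CANNTG was in 7 of the 7 windows and in 61.8% of all. These counts cover only these letters and these windows.

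After MondoA knockdown KLF5 and GATA6 rose and FOXA1 fell, while HNF4A, FOXA2 and SOX9 did not pass the test. This comparison asks how loss of MondoA alters the transcriptome of the line. By edgeR's quasi-likelihood test at an adjusted p under 0.05, 3 of the 6 factors tested were called, against 27.2% of the 13001 genes tested (14.2% higher and 12.9% lower). KLF5, a zinc finger factor of growing epithelium, had 147.6, 252.8 and 198.4 CPM in siMondoA libraries, against 44.57, 30.44 and 29.39 CPM in siControl libraries. Every siMondoA library lay above every siControl library, and the log2 fold change was 2.52 ± 0.41 (SE), a 5.75-fold rise (edgeR adjusted p = 0.00259). GATA6, a zinc finger factor of foregut endoderm and of the classical subtype, had 98.3, 142.3 and 110.9 CPM in siMondoA libraries, against 63.93, 63.06 and 61.71 CPM in siControl libraries. The groups did not overlap, siControl libraries lay close together, and the log2 fold change was 0.90 ± 0.14, a 1.86-fold rise (edgeR adjusted p = 0.00228). FOXA1, a pioneer factor, had 8.432, 3.336 and 3.6 CPM in siMondoA libraries, against 15.89, 10.15 and 11.99 CPM in siControl libraries. It was lower in 3 of 3 siMondoA libraries, with replicate 1 nearest to the siControl range, and its log2 fold change was -1.30 ± 0.41 (edgeR adjusted p = 0.0393). That call ended when siMondoA replicate 2 or 3 was left out (edgeR adjusted p = 0.12 and 0.128) and when siControl replicate 1, 2 or 3 was left out (edgeR adjusted p = 0.125, 0.0685 and 0.079), and KLF5 and GATA6 were called in all 6 such fits. In the authors' deposited table the log2 fold changes were 2.51 for KLF5 (adjusted p = 9.00e-27), 0.88 for GATA6 (adjusted p = 7.70e-06) and -1.40 for FOXA1 (adjusted p = 6.40e-05).

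Among the factors not called after MondoA knockdown, HNF4A, a nuclear receptor of liver and gut, had 25.53, 6.99 and 12.72 CPM in siMondoA libraries, against 10.03, 7.979 and 10.49 CPM in siControl libraries. The groups overlapped, siMondoA replicate 1 was highest, and the log2 fold change was 0.67 ± 0.48 (edgeR adjusted p = 0.318). SOX9, the progenitor and duct factor, had 101, 96.67 and 101.3 CPM in siMondoA libraries, against 96.6, 83.74 and 85.89 CPM in siControl libraries. The groups did not overlap, though siMondoA replicate 2 and siControl replicate 1 nearly met, and the log2 fold change was 0.17 ± 0.10 (edgeR adjusted p = 0.234). FOXA2, a pioneer factor of gut and pancreas, had 20.38, 26.13 and 19.92 CPM in siMondoA libraries, against 22.55, 18.36 and 20.59 CPM in siControl libraries, which overlap (0.11 ± 0.18 on the log2 scale, edgeR adjusted p = 0.663). Libraries did not overlap for 4 of the 6 factors, against 47.2% of the genes tested.

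**Figure D2:**
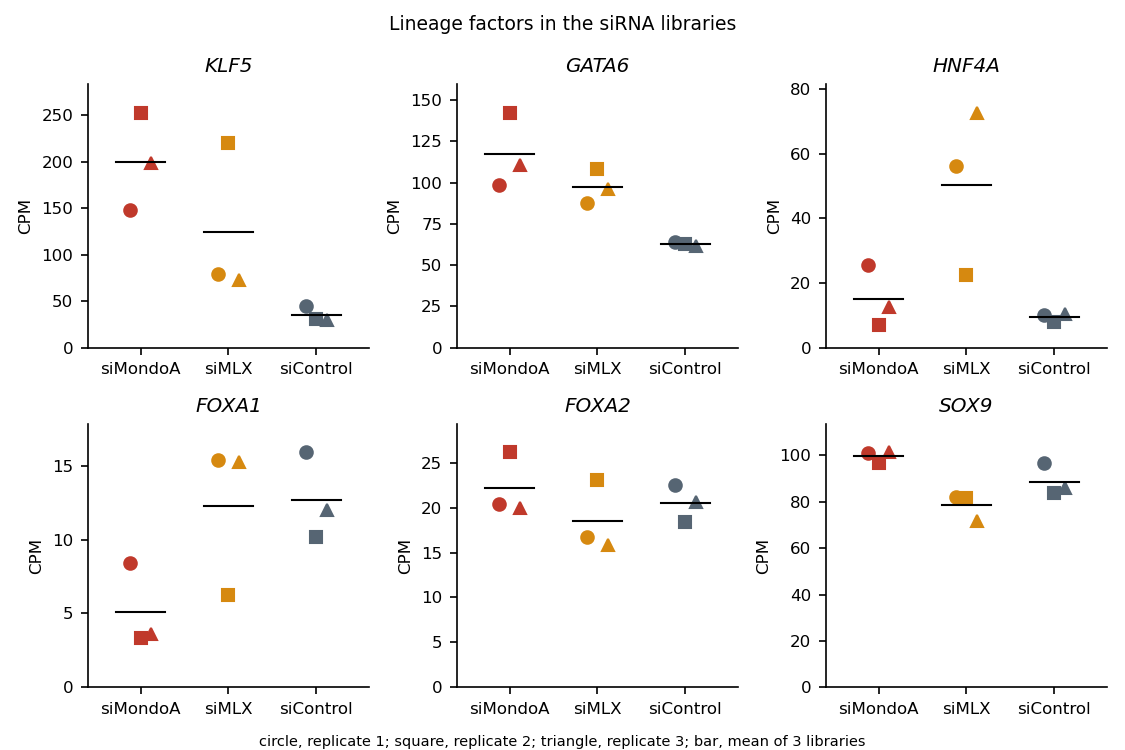
CPM of 6 factors in siMondoA, siMLX and siControl libraries, 1 point per library and a bar at the mean. KLF5 reaches 147.6 to 252.8 CPM in siMondoA libraries, and the square of siMLX marks replicate 2, where KLF5 is at 220.5 CPM and FOXA1 at 6.226 CPM.

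After MLX knockdown HNF4A, KLF5 and GATA6 rose, and FOXA1, FOXA2 and SOX9 did not pass the test. This comparison uses the same siControl libraries as the one above and asks the question for the partner of MondoA. By edgeR, 3 of the 6 factors tested were called, against 8.41% of the 13001 genes tested (3.72% higher and 4.69% lower). HNF4A had 56.11, 22.52 and 72.72 CPM in siMLX libraries, against 10.03, 7.979 and 10.49 CPM in siControl libraries. Its groups did not overlap, replicate 2 was the lowest of the siMLX libraries, and the log2 fold change was 2.41 ± 0.48, a 5.30-fold rise (edgeR adjusted p = 0.0152). KLF5 had 79.53, 220.5 and 72.88 CPM in siMLX libraries, against 44.57, 30.44 and 29.39 CPM in siControl libraries. All siMLX libraries lay above siControl libraries, with replicate 2 far above the others (log2 fold change 1.84 ± 0.40, edgeR adjusted p = 0.0213). GATA6 had 87.84, 108 and 96.03 CPM in siMLX libraries, against 63.93, 63.06 and 61.71 CPM in siControl libraries, again with no overlap (0.63 ± 0.14 on the log2 scale, edgeR adjusted p = 0.0239).

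Without siMLX replicate 2, HNF4A was 2.76 ± 0.39 higher on the log2 scale (edgeR adjusted p = 0.00375) and KLF5 1.13 ± 0.22 higher (edgeR adjusted p = 0.0175), and 2 of the 6 factors were called, against 6.27% of 13182 genes. GATA6 was then 0.55 ± 0.15 higher and just missed the threshold (edgeR adjusted p = 0.0518). The fit lost calls with other libraries left out too. Without siControl replicates 1, 2 and 3 in turn, edgeR's adjusted p was 0.0689, 0.0781 and 0.0557 for HNF4A, 0.0593, 0.0949 and 0.0809 for KLF5 and 0.0861, 0.089 and 0.0799 for GATA6. Without siMLX replicate 3 it was 0.0554 for HNF4A and 0.0661 for GATA6. With the replicate number as a block, 1815 genes were called in place of 1094, and the same 3 factors were called (edgeR adjusted p = 0.00225 for HNF4A, 0.0127 for KLF5 and 0.00864 for GATA6). In the authors' deposited table the log2 fold changes were 2.28 for HNF4A (adjusted p = 1.19e-18), 1.65 for KLF5 (adjusted p = 0.0364) and 0.62 for GATA6 (adjusted p = 0.000877).

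FOXA1 had 15.38, 6.226 and 15.23 CPM in siMLX libraries, against 15.89, 10.15 and 11.99 CPM in siControl libraries. Replicate 2 alone lay below the siControl range, and the log2 fold change was -0.046 ± 0.391 with it and 0.27 ± 0.33 without it (edgeR adjusted p = 0.956 and 0.666). FOXA2 had 16.7, 23.06 and 15.84 CPM in siMLX libraries, against 22.55, 18.36 and 20.59 CPM in siControl libraries. The groups overlapped (-0.14 ± 0.18 on the log2 scale, and -0.33 ± 0.17 without replicate 2, edgeR adjusted p = 0.657 and 0.255). SOX9 had 82.01, 81.78 and 71.58 CPM in siMLX libraries, against 96.6, 83.74 and 85.89 CPM in siControl libraries. It was lower in 3 of 3 siMLX libraries, but its log2 fold change of -0.18 ± 0.10, or -0.21 ± 0.11 without replicate 2, did not pass (edgeR adjusted p = 0.299 and 0.292). Libraries did not overlap for 4 of the 6 factors, against 33.4% of the genes tested.

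Set against each other, siMondoA libraries had less HNF4A and more SOX9 than siMLX libraries. By edgeR 2 of the 6 factors were called, against 12.9% of the 13001 genes tested. The log2 fold change of siMondoA over siMLX was -1.74 ± 0.46 for HNF4A (edgeR adjusted p = 0.0344) and 0.35 ± 0.10 for SOX9 (edgeR adjusted p = 0.0486). HNF4A ranges overlapped, since siMondoA replicate 1 (25.53 CPM) lay above siMLX replicate 2 (22.52 CPM), whereas SOX9 was higher in 3 of 3 siMondoA libraries. SOX9 was the 1 of 6 whose libraries did not overlap, against 30.2% of genes. FOXA1 missed the threshold (-1.26 ± 0.41, edgeR adjusted p = 0.0692). KLF5 (0.68 ± 0.38, edgeR adjusted p = 0.253), GATA6 (0.27 ± 0.14, 0.219) and FOXA2 (0.26 ± 0.18, 0.356) were not called. Without siMLX replicate 2, 4 of the 6 were called, against 22.5% of 13182 genes: HNF4A at -2.09 ± 0.37 (edgeR adjusted p = 0.00401), FOXA1 at -1.57 ± 0.34 (0.01), KLF5 at 1.39 ± 0.23 (0.00292) and SOX9 at 0.38 ± 0.11 (0.0362). The HNF4A call ended without siMLX replicates 1 and 3 (edgeR adjusted p = 0.096 and 0.123) and without siMondoA replicates 2 and 3 (0.0877 and 0.114). The SOX9 call ended without siMLX replicates 1 and 3 (edgeR adjusted p = 0.102 and 0.169) and without siMondoA replicates 1, 2 and 3 (0.0746, 0.0765 and 0.131). FOXA1 was called without siMondoA replicate 1 (-1.82, edgeR adjusted p = 0.0144).

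Levels of 12 integrated stress response genes, among them DDIT3, TRIB3 and ASNS, differed between libraries along with those of KLF5, GATA6 and FOXA1. The list's median lay 1.8, 2.92 and 2.58 above the siControl mean on the log2 scale in siMondoA libraries, 0.165, 2.46 and 0.279 in siMLX libraries, and -0.0611, 0.204 and -0.105 in siControl libraries. These genes were listed because they stood high in single libraries of these data, so their counts are no independent result. In siMondoA against siControl 12 of the 12 rose (100% against 27.2% of all genes). In siMLX against siControl 1 rose (8.33% against 8.41%), with 4 called with the replicate block. Without siMLX replicate 2, 0 rose and 1 fell (8.33% against 6.27%). The 4 libraries with high stress genes, siMondoA replicates 1 to 3 and siMLX replicate 2, held the 4 highest KLF5 levels (147.6 to 252.8 CPM), the 4 highest GATA6 levels (98.3 to 142.3 CPM) and the 4 lowest FOXA1 levels (3.336 to 8.432 CPM) of the siRNA experiment. HNF4A was highest in siMLX replicates 1 and 3, where the stress genes were near siControl. The KLF5 rise after siMLX was also called in the fit without replicate 2, where the remaining siMLX libraries had stress medians of 0.165 and 0.279. The part of that response in the changes after siMondoA and siMLX was not tested.

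**Figure D3:**
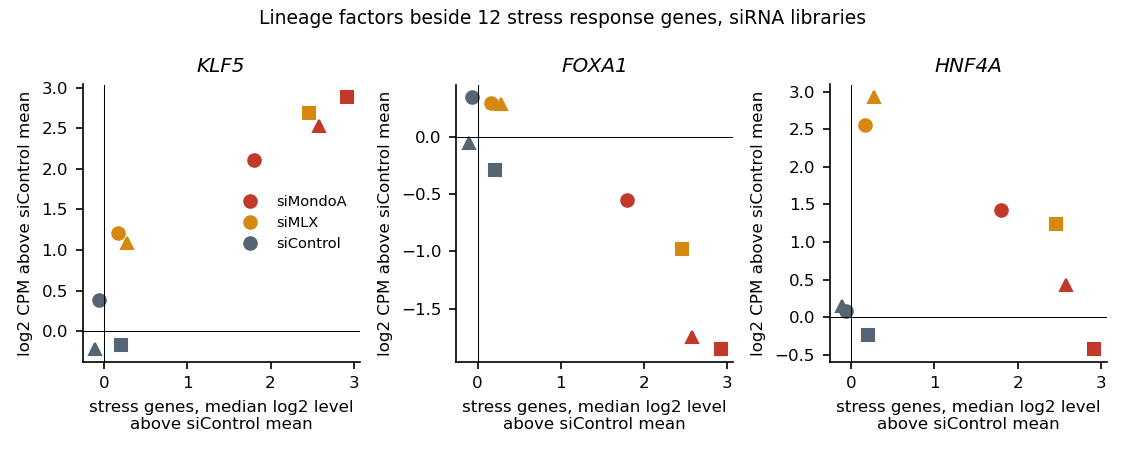
Log2 CPM of KLF5, FOXA1 and HNF4A above the siControl mean (vertical axes) against the median log2 level of 12 stress response genes above the siControl mean (horizontal axes), 1 point per siRNA library. The siMondoA libraries lie at 1.8 to 2.92 on the horizontal axis, and the siMLX library at 2.46 (square, replicate 2) lies among them for KLF5 and FOXA1.

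In drug libraries as labelled, none of the 6 factors tested was called, and in replicates 1 and 3 alone FOXA1, KLF5 and SOX9 were lower under SBI-477. As labelled, edgeR called 0 of 14023 genes (0%), with 409 at an unadjusted p under 0.05, and DESeq2 also called 0, with 444 at an unadjusted p under 0.05. FOXA1 had 5.538, 20.41 and 5.662 CPM in SBI-477 libraries of replicates 1, 2 and 3, against 16.88, 4.909 and 15.43 CPM in DMSO libraries. Replicate 2 was high where the other SBI-477 libraries were low and low where the other DMSO libraries were high, so the groups overlapped (-0.24 ± 0.60 on the log2 scale, edgeR adjusted p = 1.00). In replicates 1 and 3, FOXA1 was lower by a log2 fold change of -1.53 ± 0.15 (edgeR adjusted p = 0.000665), and 3 of the 6 factors were called, against 18.1% of the 14232 genes tested with 2 libraries a group (9.07% higher and 9.02% lower). Libraries of replicates 1 and 3 did not overlap for 5 of the 6 factors, all but HNF4A, against 63.9% of genes. As labelled they overlapped for 6 of 6, where 9.26% of genes did not.

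KLF5 had 27.21, 34.33 and 24.2 CPM in SBI-477 libraries, against 34.49, 25.67 and 35.37 CPM in DMSO libraries. Replicate 2 again ran the other way, and the log2 fold change was -0.16 ± 0.17 as labelled and -0.44 ± 0.10 in replicates 1 and 3 (edgeR adjusted p = 1.00 and 0.0177). SOX9 had 49.09, 64.97 and 48.57 CPM in SBI-477 libraries, against 58.48, 47.65 and 67.2 CPM in DMSO libraries. The same replicate was high under SBI-477 and low under DMSO (-0.093 ± 0.168 as labelled and -0.36 ± 0.09 in replicates 1 and 3, edgeR adjusted p = 1.00 and 0.0287). HNF4A had 17.23, 12.35 and 9.952 CPM in SBI-477 libraries, against 10.9, 24.07 and 12.75 CPM in DMSO libraries, and the sign of its change differed between both fits (-0.26 ± 0.33 as labelled and 0.21 ± 0.23 in replicates 1 and 3, edgeR adjusted p = 1.00 and 0.541). GATA6 had 53.36, 57.94 and 52.73 CPM in SBI-477 libraries, against 65.13, 67.42 and 57.58 CPM in DMSO libraries. Its log2 fold change was -0.21 ± 0.11 as labelled and -0.21 ± 0.09 in replicates 1 and 3, and neither passed (edgeR adjusted p = 1.00 and 0.142). FOXA2 had 13.95, 18.29 and 17.34 CPM in SBI-477 libraries, against 19.11, 17.9 and 19.97 CPM in DMSO libraries (-0.20 ± 0.14 as labelled and -0.32 ± 0.13 in replicates 1 and 3, edgeR adjusted p = 1.00 and 0.121). In the authors' deposited table for the drug the log2 fold changes were -1.70 for FOXA1 (adjusted p = 3.17e-20), -0.42 for KLF5 (adjusted p = 0.00253), -0.38 for SOX9 (adjusted p = 0.00367), 0.52 for HNF4A (adjusted p = 0.107), -0.047 for GATA6 (adjusted p = 0.836) and -0.21 for FOXA2 (adjusted p = 0.3).

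**Figure D4:**
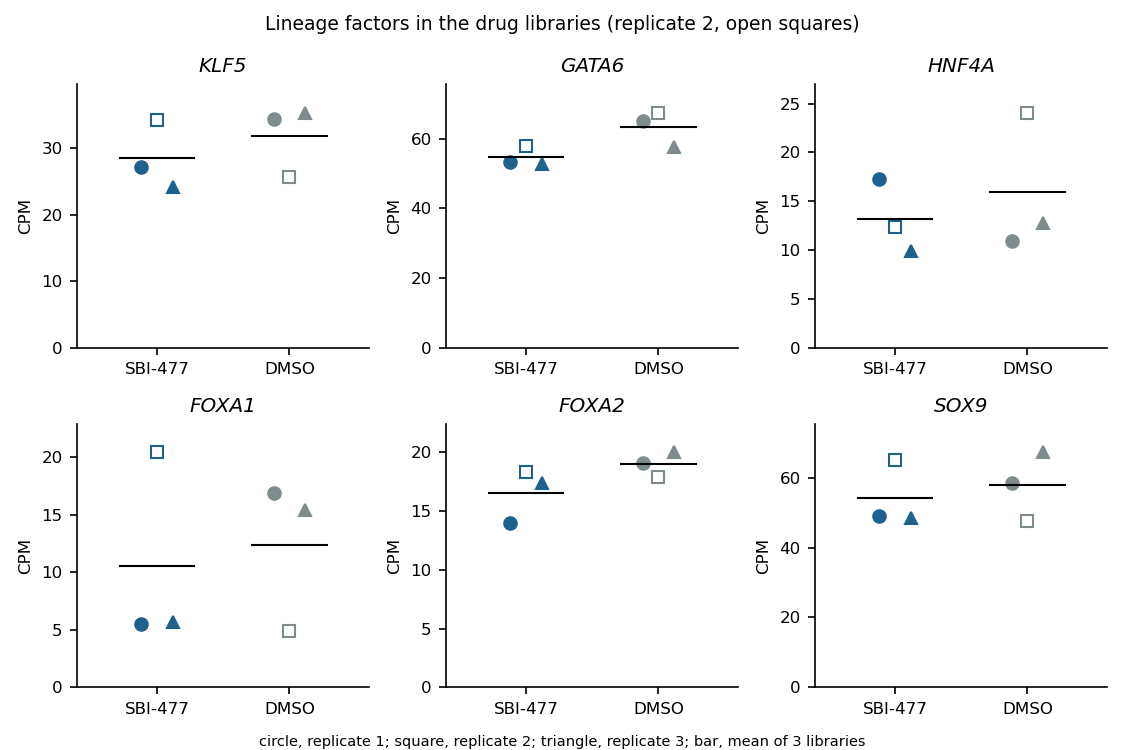
CPM of 6 factors in SBI-477 and DMSO libraries, 1 point per library and a bar at the mean, with replicate 2 as open squares. FOXA1 is at 5.538 and 5.662 CPM in SBI-477 replicates 1 and 3 and at 20.41 CPM in replicate 2, and at 16.88, 15.43 and 4.909 CPM in the matching DMSO libraries.

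The responses of GATA6 and KLF5 to SBI-477 and to siMondoA differed. In 1 fit of all 15 libraries, the SBI-477 effect minus the siMondoA effect was -1.09 ± 0.18 on the log2 scale for GATA6 (edgeR adjusted p = 0.00436) and -2.66 ± 0.49 for KLF5 (edgeR adjusted p = 0.00655). These were the 2 called of 6 factors tested, against 7.67% of 13681 genes, and each was called in 12 of 12 fits that left out 1 library. With drug replicates 1 and 3 the differences were -1.08 ± 0.20 for GATA6 (edgeR adjusted p = 0.00873), -2.94 ± 0.56 for KLF5 (0.00969) and -0.51 ± 0.15 for SOX9 (0.0453), 3 of 6 called, against 11.5% of 13817 genes. The stress genes that rose after siMondoA lay between -0.352 and -0.106 of the DMSO mean in SBI-477 libraries (log2 median of the 12). In drug replicates 1 and 3, 4 of the 12 fell (33.3% against 18.1% of all genes). Their part in these differences was not tested. For FOXA1 the difference was 1.07 ± 0.78 as labelled and -0.20 ± 0.56 in replicates 1 and 3, neither past the threshold (edgeR adjusted p = 0.415 and 0.842). For HNF4A it was -0.91 ± 0.64 and for FOXA2 -0.30 ± 0.23, not called either (edgeR adjusted p = 0.397 and 0.459). TXNIP, a MondoA target, was at 157.7, 230.1 and 57.52 CPM in siMondoA libraries, against 782.5, 785.4 and 518.4 CPM in siControl libraries. In SBI-477 libraries TXNIP was at 74.59, 121.1 and 41.49 CPM, against 145.1, 39.18 and 204.2 CPM in DMSO libraries. Whether the drug and the siRNA acted equally on MondoA was not tested.

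**Figure D5:**
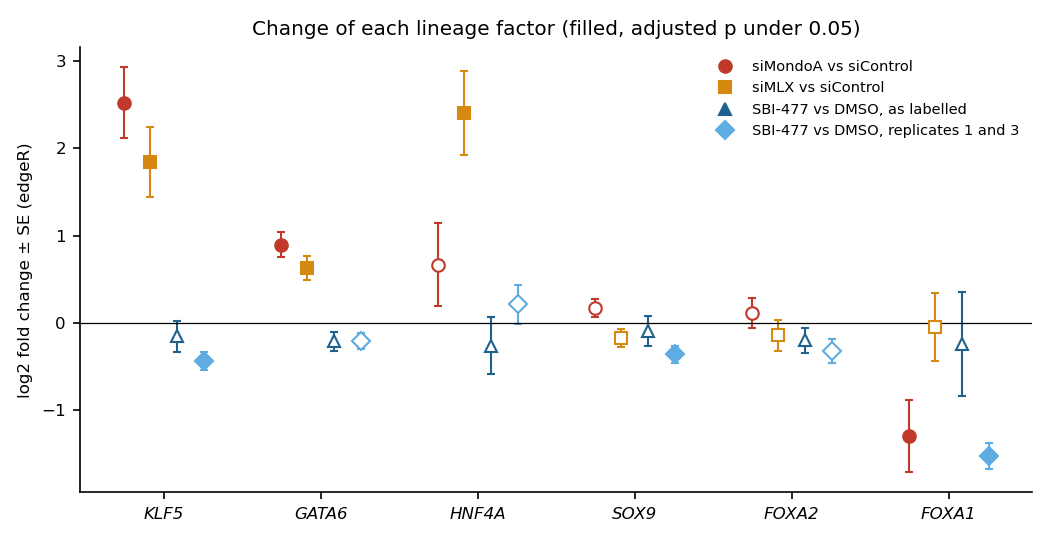
Log2 fold change ± SE of 6 factors by edgeR after siMondoA and siMLX against siControl and after SBI-477 against DMSO, as labelled and in replicates 1 and 3, with filled symbols at an adjusted p under 0.05. KLF5 and GATA6 are filled above 0 for both siRNAs, HNF4A for siMLX (2.41), and FOXA1 is filled below 0 for siMondoA (-1.30) and for SBI-477 in replicates 1 and 3 (-1.53).

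Other endodermal and pancreatic transcription factors were mostly too low to test. Of 31 such genes, 7 had no count in any library, among them PDX1 and PTF1A, the factors of early pancreas and acinar cells, and 10 were tested in siRNA libraries. After siMondoA 1 rose and 1 fell (20% against 27.2% of all genes), with a list median of -0.26 on the log2 scale against 0.0039 over all genes. NR5A2, a nuclear receptor of acinar and liver cells, rose by 0.75 ± 0.13 after siMondoA (edgeR adjusted p = 0.00385) and by 0.99 ± 0.13 after siMLX (edgeR adjusted p = 0.00293). Without siMLX replicate 2 its rise after siMLX was 0.85 ± 0.12 (edgeR adjusted p = 0.0038). It was the only gene of that list called after siMLX (10% against 8.41% of all genes). It averaged 47.1 ± 3.64 CPM in siMondoA, 55.6 ± 8.55 CPM in siMLX and 28.01 ± 1.39 CPM in siControl libraries (SD, n = 3 each). In drug replicates 1 and 3, NR1H4, the bile acid receptor FXR, and NR5A2 fell (-1.81 ± 0.33 and -0.43 ± 0.09, edgeR adjusted p = 0.00754 and 0.0124). These were 2 of 11 tested, near the share of all genes (18.2% against 18.1%).

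Relatives of the factors were called after siMondoA about as often as all genes (27.6% against 27.2%). Of 36 other GATA, FOX, KLF and SOX genes, 29 were tested in siRNA libraries and 6 rose and 2 fell after siMondoA. KLF6 rose by 1.56 ± 0.29 (edgeR adjusted p = 0.00499), FOXD1 by 1.21 ± 0.29 (0.0142), FOXL1 by 0.99 ± 0.24 (0.0147) and SOX5 by 2.11 ± 0.55 (0.0183) on the log2 scale. After siMLX none of the 29 was called (0% against 8.41% of all genes), but 4 were with the replicate block. Without siMLX replicate 2, GATA2 rose and FOXP1 fell (0.83 ± 0.18 and -0.53 ± 0.12, edgeR adjusted p = 0.0263 and 0.0317), 6.9% against 6.27% of all genes. In drug replicates 1 and 3, 1 rose and 5 fell of 28 tested (21.4% against 18.1% of all genes), with KLF9 lowest (-1.90 ± 0.18, edgeR adjusted p = 0.000665). Of 15 other factors of epithelial states, 9 were tested, and 44.4% were called after siMondoA and 22.2% in drug replicates 1 and 3, against 27.2% and 18.1% of all genes. EHF, an ETS factor of epithelium, GRHL1, a grainyhead factor, and ELF1 rose after siMondoA (0.91 ± 0.20, 1.46 ± 0.38 and 0.66 ± 0.17, edgeR adjusted p = 0.0091, 0.0191 and 0.0207), GRHL3 fell (-1.96 ± 0.53, 0.0213), and none was called after siMLX (1 with the replicate block). ELF3 and EHF fell in drug replicates 1 and 3 (-1.98 ± 0.15 and -0.79 ± 0.20, edgeR adjusted p = 0.000301 and 0.0246). Of 18 factors of squamous, basal-like and mesenchymal states, 15 were tested, and 5 rose and 0 fell after siMondoA, 33.3% against 27.2% of all genes, with a list median of 0.42. SNAI2 (2.49 ± 0.45), RUNX2 (1.62 ± 0.29), ZEB2 (1.40 ± 0.32) and RUNX1 (0.55 ± 0.14) were among them (edgeR adjusted p = 0.004, 0.00413, 0.0121 and 0.0179). After siMLX 3 of the 15 rose (20% against 8.41% of all genes, and 6.67% against 6.27% without replicate 2), GLI2, SNAI1 and TEAD4 (1.23 ± 0.28, 0.77 ± 0.18 and 0.66 ± 0.16, edgeR adjusted p = 0.0261, 0.0293 and 0.0329), with 5 called under the replicate block and GLI2 alone without siMLX replicate 2 (1.43 ± 0.26, 0.0143). HMGA2 rose and GLI2 fell in drug replicates 1 and 3 (0.46 ± 0.09 and -0.63 ± 0.18, edgeR adjusted p = 0.0093 and 0.041), 13.3% against 18.1% of all genes.

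Classical subtype markers were called at 11.1% after siMondoA, 11.1% after siMLX and 50% in drug replicates 1 and 3, against 27.2%, 8.41% and 18.1% of all genes. For basal-like markers these shares were 54.5%, 27.3% and 25%, and 9.09% after siMLX without replicate 2, against 6.27% of all genes. Of 24 classical markers 9 were tested in siRNA libraries and 2 of the 24 had no count in any library. After siMondoA 1 rose, SPINK4 (1.30 ± 0.26, edgeR adjusted p = 0.00708), with a list median of 0.0956, and after siMLX 1 rose, ANXA10 (0.59 ± 0.11, edgeR adjusted p = 0.0114), with a list median of 0.0616 (4 called with the replicate block). In the authors' deposited table TSPAN8, AGR2 and TFF3 fell after siMondoA (-1.46, -0.89 and -0.85, adjusted p = 3.69e-10, 0.000133 and 0.000228). There they also fell after siMLX (-1.03, -0.88 and -1.16, adjusted p = 1.99e-05, 6.06e-05 and 1.63e-07). In that table SPINK4 and TFF2 rose after siMondoA, and LYZ and ANXA10 after siMLX (adjusted p under 0.05). In drug replicates 1 and 3, 3 rose and 2 fell of 10 tested, TFF1 and ANXA10 higher (1.10 ± 0.23 and 0.37 ± 0.08) and AGR2 and SPINK4 lower (-1.34 ± 0.29 and -1.48 ± 0.36; edgeR adjusted p = 0.0135, 0.017, 0.0153 and 0.0229). Of 25 basal-like markers 11 were tested, and 5 rose and 1 fell after siMondoA, with a list median of 0.39. DHRS9 rose and CTSV fell (0.44 ± 0.14 and -1.41 ± 0.29, edgeR adjusted p = 0.036 and 0.0071). AREG, a ligand of the EGF receptor, rose by 3.76 ± 0.49 after siMondoA (edgeR adjusted p = 0.00104) and by 2.75 ± 0.47 after siMLX (0.00881; 1.88 ± 0.24 without siMLX replicate 2, 0.00276). It was 1 of 3 basal-like markers that rose after siMLX and the only 1 without siMLX replicate 2. TNS4 and KRT7 fell in drug replicates 1 and 3 (-1.21 ± 0.10 and -0.38 ± 0.11, edgeR adjusted p = 0.000313 and 0.0366). CDH1, the adhesion protein E-cadherin, averaged 30.8 ± 8.65 CPM in siMondoA and 5.97 ± 2.76 CPM in siControl libraries (SD, n = 3 each) and rose by 2.38 ± 0.37 on the log2 scale (edgeR adjusted p = 0.00215), while CLDN4 and MUC1 of the same epithelial list fell (-1.31 and -0.67, edgeR adjusted p = 0.0199 and 0.0469). CLDN4 also fell after siMLX (-1.64 ± 0.35, edgeR adjusted p = 0.0199), 1 of the 10 tested (10% against 8.41% of all genes). After siMondoA 4 of 10 were called, 1 higher and 3 lower (40% against 27.2%). With the replicate block, 3 were called after siMLX. In drug replicates 1 and 3, 0 rose and 5 fell of the 10 (50% against 18.1% of all genes), among them ELF3, KRT18 and KRT8 (edgeR adjusted p = 0.000301, 0.00273 and 0.00392). Of 7 duct markers tested, 0 rose and 3 fell after siMondoA (42.9% against 27.2% of all genes). After siMLX 0 of them were called (0% against 8.41%, and 2 with the replicate block). In drug replicates 1 and 3, 1 rose and 4 fell (71.4% against 18.1%).

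Known liver and gut targets of HNF4A were called at shares of 22.2% after siMondoA, 11.1% after siMLX and 33.3% in drug replicates 1 and 3, against 27.2%, 8.41% and 18.1% of all genes, so the siRNA shares were near the background. Of 26 such genes 4 had no count in any library and 9 were tested in siRNA libraries. After siMLX, where HNF4A rose, 1 of the 9 rose and 0 fell, with a list median of 0.33 against 0.0177 over all genes. That gene was TM4SF5, a membrane protein of liver and gut, at 2.76 ± 1.24 CPM in siMLX and 0.617 ± 0.095 CPM in siControl libraries (SD, n = 3 each; log2 fold change 2.16 ± 0.38, edgeR adjusted p = 0.0094). The change was 1.74 ± 0.36 without siMLX replicate 2 (edgeR adjusted p = 0.0198). In the authors' deposited table both TM4SF5 and FGB rose after siMLX (2.09 and 0.90, adjusted p = 0.00981 and 0.000138). No gene of the list fell there at an adjusted p under 0.05. After siMondoA 2 of the 9 fell: PCK1, an enzyme of glucose synthesis, averaged 2.63 ± 1.63 CPM in siMondoA and 104.6 ± 37.6 CPM in siControl libraries (-5.31 ± 0.49, edgeR adjusted p = 0.00017), and VIL1, at a mean of 0.811 CPM, was -3.40 ± 0.85 (0.0166; named after its value was seen). In drug replicates 1 and 3, where HNF4A was not called, PCK1, FGB and FGA fell, 3 of 9 tested (-3.87 ± 0.40, -2.68 ± 0.43 and -2.95 ± 0.50, edgeR adjusted p = 0.000906, 0.00496 and 0.006).

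Across the 15 libraries, after the mean of each experiment was taken away, the r of GATA6 with KLF5 was high in the siRNA experiment and not in the drug experiment (Pearson r of log2 CPM = 0.916 over all 15, 0.952 over the 9 siRNA and 0.237 over the 6 drug libraries). Among 10548 other genes, those most like KLF5 were RCAN1 (0.97), ZSWIM6 (0.963) and BDKRB1 (0.962), and those most like GATA6 were CEP57L1 (0.966), CKS1B (0.963) and LRRC42 (0.947). FOXA1 was most like USP21 (0.949) and ZNF248 (0.93), and its own r with KLF5 was -0.766 over the 9 siRNA libraries but 0.953 over the 6 drug libraries. HNF4A was most like DOK4 (0.918), KIAA1549L (0.915) and AGMAT (0.908). SOX9 was most like KIAA1522 (0.91), LRRC16A (0.897) and ATP8B1 (0.892), and FOXA2 was most like RNPEPL1 (0.86), RHBDF1 (0.842) and RNF10 (0.837). These are descriptions over libraries that share treatments, with no test.

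The 7 genes lie on 6 chromosomes (GENCODE v29, GRCh38): FOXA1 at chr14:37589984-37596059, FOXA2 and HNF4A on chromosome 20 at 22581005-22585455 and 44355700-44434596, FOXA3 at chr19:45863989-45873797, GATA6 at chr18:22169443-22202528, KLF5 at chr13:73054976-73077542 and SOX9 at chr17:72121020-72126420. GATA6, HNF4A and SOX9 overlap or adjoin antisense genes, and no source used here says whether counting used strand. Those partners were low: GATA6-AS1 had 2 to 37 counts per library, HNF4A-AS1 0 to 2 and SOX9-AS1 0 to 7. Reads of 25 bases from the conserved DNA-binding domains of the FOXA, GATA, KLF and SOX families may not be placed apart.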

How the data were processed

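Gene-level RNA-seq of 15 PSN-1 libraries was analysed. Per the labels' protocols, RNA was extracted with Direct-zol kits and 500 ng entered Kapa preparation for paired 25-base reads. The submitters' processing notes name bcl2fastq (1.8.4), TopHat2 (2.1.0), HTSeq (0.6.1), edgeR and the builds hg38 and mm10. The authors deposited a table for each experiment, which holds unnormalized read counts for every gene in every library. Further deposited columns are the authors' log2 fold changes, p-values and adjusted p-values, and no source used here names the tool behind them. Their mean columns were not used. The fold changes were compared with fits run here over genes with a mean count above 20. DESeq2 with a replicate term, on the libraries of each comparison, matched both siRNA columns. The drug column was matched without that term and with replicate 2 of both groups exchanged. The deposited fold changes thus come from other models than the edgeR values beside them, and the deposited p-values were not refitted.

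From the counts, edgeR 4.0.16 (R 4.3.3, limma 3.58.1) kept genes by filterByExpr, scaled by TMM and ran the quasi-likelihood test, with the 9 siRNA libraries in 1 fit, the 6 drug libraries in another, and all 15 together for the difference of effects. Adjusted p-values are Benjamini-Hochberg over all genes tested, with a threshold of 0.05. DESeq2 1.42.0, other scaling, no filter, a replicate block and leaving out single libraries were alternatives. Log2 CPM used a prior count of 2. Fits were first tested on simulated data. The floors cover counting error only, while the SD and SE values include the spread between libraries. No 2 replicates agreed within sampling noise.

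Same-numbered libraries of siMLX and siControl deviated together in every pair (r = 0.268, 0.188 and 0.359). The main fits held no replicate term, and the replicate block was only an alternative. The 7 factors were always named, up to 4 genes of each other list with the smallest adjusted p and a mean of at least 1 CPM, and the 3 genes most like each factor among those with at least 4 CPM. A few genes that this rule names are not reported here. The factors and lists were chosen with earlier results of these data known. Figures were drawn with matplotlib 3.10.9. Promoter bases came from RefSeq tables.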

Additional observations from a re-analysis of the deposited data

Results flagged for a closer look

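For GATA6 the SBI-477 effect minus the siMondoA effect was -1.09 on the log2 scale, and a test of the difference itself between the drug and siRNA experiments passed (edgeR adjusted p = 0.00436). For KLF5 that difference was -2.66 and passed the same test (edgeR adjusted p = 0.00655). Both experiments were deposited as separate tables, so each effect was taken within its own table.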

How the results depend on the processing

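For siMLX against siControl, 1094 genes became 1815 with the replicate block and 1686 with DESeq2. For siMondoA against siMLX, 1673 became 2606 with the replicate block, and 706 with only the 6 libraries compared, where 0 factors were called. For SBI-477 against DMSO, 0 genes and 0 factors became 2575 and 3 in replicates 1 and 3, where HNF4A turned to 0.21. For the difference of effects, 1049 genes became 1772 with DESeq2 and 1595 with drug replicates 1 and 3, where FOXA1 turned to -0.20. Leaving out 1 library gave 1745 to 3884 genes for siMondoA, 254 to 833 for siMLX, 670 to 2970 for siMondoA against siMLX and 423 to 1680 for the difference of effects. Factors called then ran from 0 to 3 for siMLX and from 0 to 4 for siMondoA against siMLX. Uncalled log2 fold changes that turned sign then ran from -0.024 to 0.18 for FOXA2 after siMondoA, from -0.24 to 0.27 for FOXA1 after siMLX, and after SBI-477 from -0.50 to 0.15 for HNF4A, -1.15 to 0.078 for FOXA1 and -0.24 to 0.030 for SOX9. The cause was not tested. FOXA1 in siMondoA against siMLX was called with the replicate block and with DESeq2 (adjusted p = 0.0107 and 0.015), and without a filter on low counts (0.0408), where SOX9 was not (0.0767). The replicate block changed no factor call in the comparisons with siControl. Same-numbered libraries correlated at 0.136, 0.0881 and 0.0084 between siMondoA and siControl, 0.534, 0.447 and -0.109 between siMondoA and siMLX, and -0.243, -0.555 and -0.448 between SBI-477 and DMSO. Levels of the 7 factors under library total scaling all stayed within 1 SD, and the genes most like each factor were the same with a prior count of 5. Without siMLX replicate 2 in the shared spread, a setting added after the data were seen, FOXA1 after siMondoA had an adjusted p of 0.0112. At the counts of FOXA3 no difference was detectable.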
